A study of Arabidopsis thaliana with 8 samples.

Results

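Photosystem II core genes of the plastid genome were followed in Arabidopsis thaliana seedlings of 4 genotypes. The members are the probe sets that name psbA, psbB, psbC, psbD, psbE or psbF as their only gene in the platform's probe-gene table. There were 6, with 1 probe set for each gene, among 22746 probe sets without controls. All 6 were among the 13647 probe sets kept after the dimmest 40% were left out. The study hybridised total RNA of seedlings of the Columbia accession to the Affymetrix ATH1 array, with 2 arrays for each genotype and 8 in all. The genotypes were wild type (WT), the single mutants phyA-211 (called phyA) and phyB-9 (phyB), and the double mutant carrying phyA-211 and phyB-9 (phyAphyB). All groups shared the same growth: seeds on 0.8% agar were chilled for 5 days at 6 degrees C, then moved to 22 degrees C, where white light for 1 h was followed by 3 days of darkness. No label tells whether arrays sharing a genotype stand for independently grown seedlings, and the spread behind each p-value may therefore be only technical. Each mutant group rests on 1 allele.

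Photosystem II is the thylakoid complex that uses light to oxidise water. Its core consists of the reaction centre proteins D1 and D2, the chlorophyll-binding inner antenna proteins CP47 and CP43, and cytochrome b559, which has an alpha and a beta subunit. All of these are encoded in the plastid genome and transcribed there. Seedlings grown in darkness hold etioplasts, plastids without chlorophyll or a working photosystem II, because flowering plants need light to reduce protochlorophyllide. Phytochromes A and B are photoreceptors for red and far-red light that drive the change from dark to light development, and the comparison asks how their loss bears on transcripts of seedlings kept in darkness. In whole seedlings, fewer plastids or cells and less RNA per plastid or cell cannot be told apart.

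The arrays differed in ways that the genotypes do not account for. The GAPDH control has probes at either end of its transcript, and a high 3'/5' ratio is known from degraded RNA. This ratio reached 16.7 for WT replicate 1 and 7.87 for phyB replicate 2, while the 6 remaining arrays had 1.31 to 2.31. The same ratio of the actin control set only WT replicate 1 apart, at 46.7, with phyB replicate 2 at 7.50 inside the 3.64 to 10.8 of the others. Hybridisation spikes stood at 2.97 times the median array in WT replicate 1, at 1.71 in phyB replicate 2 and at 0.69 to 1.22 elsewhere. The 6 highest correlations of log2 values between arrays, 0.954 to 0.976, each joined different genotypes with the same replicate number, and the 4 correlations within a genotype were 0.900 to 0.925. The number of phyA replicate 1 is not from its title. No probe set was named PHYA or PHYB in the tables used, which left the genotype labels without a check on the mutated genes. The label of dark-grown seedlings could be checked on few markers: 2 of 5 for etiolated cotyledon and hypocotyl (PORB and EXPA8, summed intensity 61139 to 91023), 1 of 6 for root (66582 to 120174) and 3 of 7 for light-grown leaf (58972 to 74391) had a named probe set. EXPA8, an expansin gene, stood at a log2 change against WT of 1.21 in phyA, 1.85 in phyB and 1.28 in phyAphyB. PORB stood at 0.07, -0.17 and 0.01 in the same order. The part of either gene in the values below was not tested. Values below are the deposited intensities, or log2(intensity + 39), where 39 is a pseudocount at the 10th percentile of all values. Changes come from limma, which was fitted to all 8 arrays, and a call needs a Benjamini-Hochberg adjusted p under 0.05 over the 13647 probe sets.

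None of the 6 genes was called in any comparison of genotypes. Of all probe sets, 0.0147% were called for phyA against WT, 0% for phyB against WT and 0.022% for phyAphyB against WT. At an unadjusted p under 0.05, limma gave psbC and psbE for phyA, psbC for phyB and psbE for phyAphyB, that is 2, 1 and 1 of 6 members against 6.37%, 5.93% and 3.57% of all probe sets. The fitted change against WT was positive for 5 of 6 members in phyA (median 1.204 on the log2 scale, against -0.01 over all probe sets), for 6 of 6 in phyB (median 1.06 against -0.06) and for 3 of 6 in phyAphyB (median 0.36 against 0.04). A positive change was found for 49%, 44.5% and 53.3% of all probe sets in phyA, phyB and phyAphyB. Members whose both mutant arrays lay above both WT arrays numbered 5 in phyA, 3 in phyB and 1 in phyAphyB, where 18%, 14.7% and 17% of all probe sets did so. The 3 comparisons share the WT arrays.

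**Figure D1:**
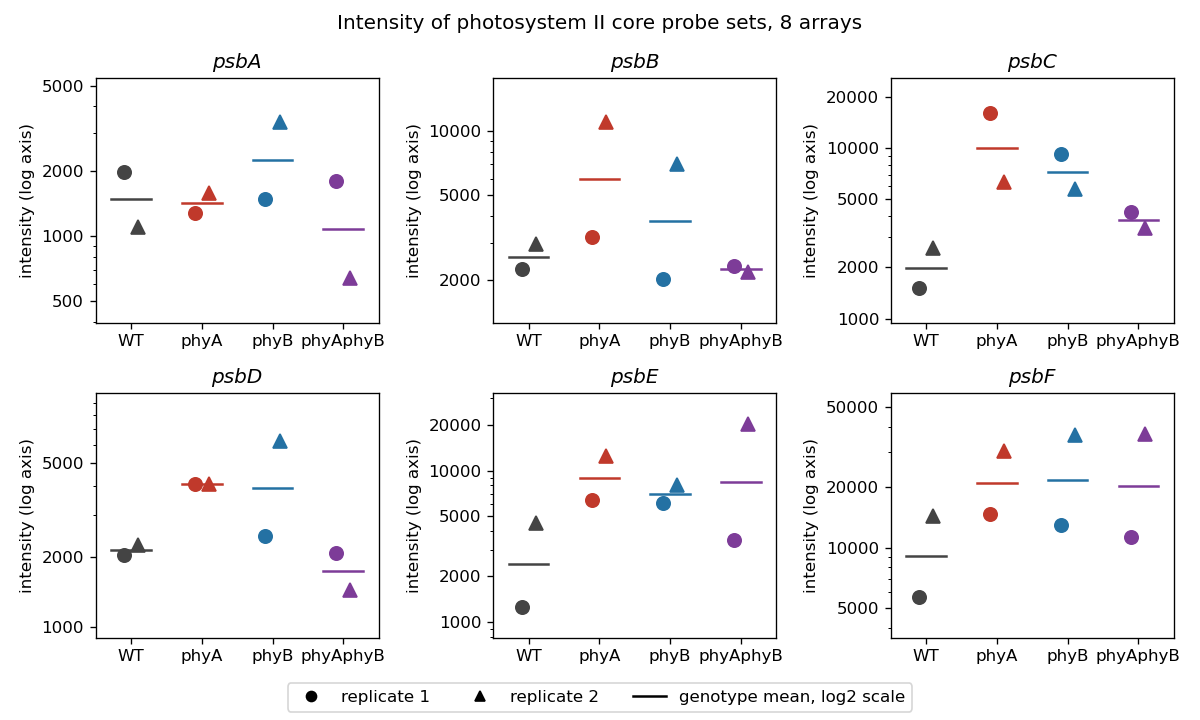
Intensity (log axis) of the 6 photosystem II core probe sets in every array, by genotype; circles are replicate 1, triangles replicate 2 and bars the genotype mean on the log2 scale. psbC is the 1 gene whose 6 mutant arrays (3406 to 16003) all lie above both WT arrays (1520 and 2606), while psbA overlaps in every pair of genotypes.

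The reaction centre genes differed from each other. psbA encodes D1, the reaction centre protein that is replaced most often in the light. Its intensity was 1998 and 1102 in WT, 1289 and 1596 in phyA, 1497 and 3371 in phyB and 1808 and 639 in phyAphyB, replicate 1 first. The arrays of every pair of genotypes overlapped. On the log2 scale its change against WT was -0.05 in phyA (SE 0.57, 95% interval -1.32 to 1.22), 0.59 in phyB (interval -0.68 to 1.85) and -0.45 in phyAphyB (interval -1.71 to 0.82). These intervals still hold changes of 1 log2 unit in either direction for phyA, so the arrays do not show that psbA was alike in the genotypes.

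psbD encodes D2, the partner of D1 in the reaction centre. Its intensity was 2032 and 2238 in WT, 4088 and 4083 in phyA, 2459 and 6211 in phyB and 2069 and 1445 in phyAphyB. Both single mutants lay above both WT arrays, and phyAphyB overlapped WT. The level in phyA was 1.90-fold of WT on the log2(intensity + 39) scale (log2 change 0.93, SE 0.45, limma adjusted p = 0.761), and in phyB 1.82-fold (log2 change 0.86, SE 0.45, adjusted p = 0.841). With phyB replicate 1 alone the value in phyB was 0.20, and with replicate 2 alone it was 1.53. In phyAphyB psbD stood at a log2 change of -0.30 (SE 0.45). Both phyAphyB arrays lay below both phyA arrays (log2 change -1.22, SE 0.45, limma adjusted p = 1.00) and below both phyB arrays (-1.16, SE 0.45, adjusted p = 0.996). By mean log2 level the order was phyA (12.01 ± 0.00), phyB (11.95 ± 0.94), WT (11.08 ± 0.10) and phyAphyB (10.79 ± 0.36; SD, n = 2 each). The neighbours phyA and phyB, and WT and phyAphyB, overlapped.

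The inner antenna gene psbC had the largest fitted change among the 6 in phyA and in phyB. psbC encodes CP43, which binds chlorophyll next to the reaction centre. Its intensity was 1520 and 2606 in WT, 16003 and 6310 in phyA, 9185 and 5761 in phyB and 4228 and 3406 in phyAphyB. All 6 mutant arrays lay above both WT arrays, which was so for 6.02% of all probe sets and for no other member. The level was 4.97-fold of WT in phyA (log2 change 2.31, SE 0.49, 95% interval 1.23 to 3.40, limma adjusted p = 0.761) and 3.60-fold in phyB (log2 change 1.85, SE 0.49, interval 0.76 to 2.94, adjusted p = 0.704). In phyAphyB it was 1.89-fold (log2 change 0.92, SE 0.49, interval -0.17 to 2.004, adjusted p = 0.997). Before adjustment, limma's model across all probe sets gave these 3 changes p-values of 0.000809, 0.00359 and 0.0895.

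By mean log2 level psbC ran from phyA (13.30 ± 0.95) and phyB (12.84 ± 0.47) to phyAphyB (11.90 ± 0.22) and WT (10.99 ± 0.54; SD, n = 2 each). phyA and phyB overlapped (difference 0.46, SE 0.49). The phyAphyB arrays lay below all 4 single mutant arrays, at a log2 change of -1.40 against phyA (SE 0.49, limma adjusted p = 1.00) and -0.93 against phyB (SE 0.49, adjusted p = 0.996). With phyA replicate 1 left out the change in phyA was 1.64, and with phyA replicate 2 left out it was 2.98, while that in phyB was 1.47 and 2.23 with WT replicate 1 or 2 left out. In phyAphyB the same omissions gave 0.54 and 1.298. When WT replicate 1 and phyB replicate 2, the arrays with high GAPDH ratios, were dropped together, the log2 change of psbC was 1.93 in phyA, 1.80 in phyB and 0.54 in phyAphyB.

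psbB encodes CP47, the other inner antenna protein. Its intensity was 2255 and 2941 in WT, 3180 and 11088 in phyA, 2021 and 7028 in phyB and 2326 and 2174 in phyAphyB. High values were seen in phyA replicate 2 and phyB replicate 2, and the remaining 6 arrays lay between 2021 and 3180. The log2 change against WT was 1.19 in phyA (SE 0.65, limma adjusted p = 0.776), with both phyA arrays above WT, 0.55 in phyB (SE 0.65) and -0.19 in phyAphyB (SE 0.65), where arrays overlapped. The value in phyA was 0.30 with replicate 1 alone and 2.09 with replicate 2 alone, and that in phyB was -0.34 and 1.43. Mitochondrion-encoded genes were also highest in these 2 arrays: the summed intensity of 15 such probe sets reached 31122 in phyB replicate 2 and 17544 in phyA replicate 2, and it was 8843 to 14529 elsewhere. Whether this has a part in the psbB values was not tested.

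**Figure D2:**
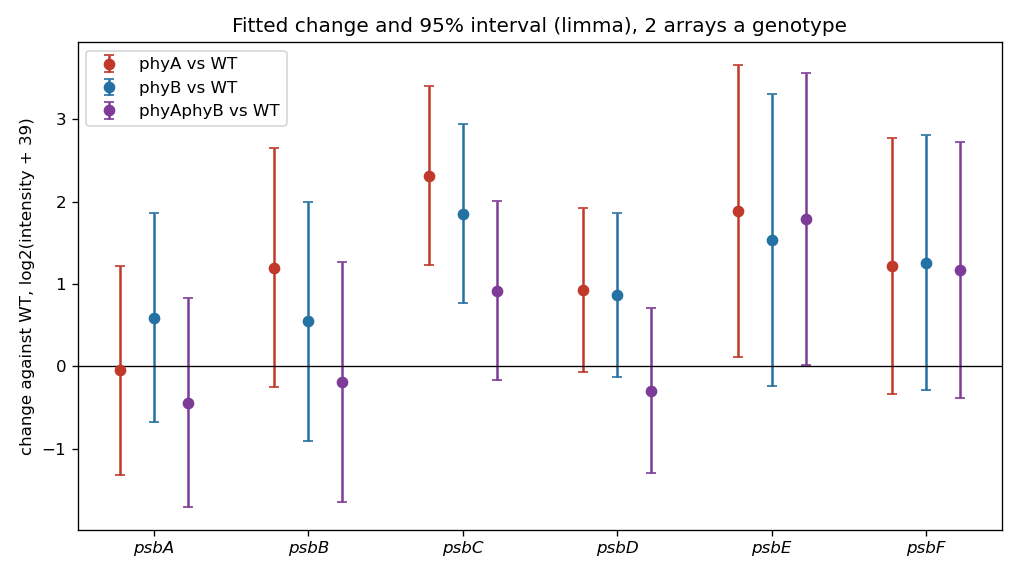
Fitted change of each gene against WT on the log2(intensity + 39) scale for phyA, phyB and phyAphyB, with limma's 95% interval (2 arrays a genotype). The intervals exclude 0 for psbC in phyA and phyB and for psbE in phyA and phyAphyB, without adjustment for the number of probe sets tested.

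The cytochrome b559 genes psbE and psbF varied together from array to array. psbE encodes the alpha and psbF the beta subunit, which hold a haem group between them. psbE was 1262 and 4526 in WT, 6441 and 12513 in phyA, 6143 and 8037 in phyB and 3464 and 20255 in phyAphyB. psbF was 5712 and 14338 in WT, 14647 and 30206 in phyA, 12959 and 36397 in phyB and 11325 and 36661 in phyAphyB. Both genes were lowest in WT replicate 1 and highest in phyAphyB replicate 2. In every genotype the replicate 2 array lay above the replicate 1 array, by 1.31-fold (phyB) to 5.85-fold (phyAphyB) for psbE and by 2.06-fold (phyA) to 3.24-fold (phyAphyB) for psbF. Of all probe sets 20.5% had replicate 2 above replicate 1 in all 4 genotypes, and the other 4 members did not.

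For psbE the log2 change against WT was 1.89 in phyA (SE 0.80, limma adjusted p = 0.761), 1.54 in phyB (SE 0.80, adjusted p = 0.842) and 1.79 in phyAphyB (SE 0.80, adjusted p = 0.997). Both arrays of phyA and of phyB lay above WT, and phyAphyB overlapped. For psbF the changes were 1.21, 1.26 and 1.17 (SE 0.70 each), with adjusted p from 0.788 to 0.997, and only phyA did not overlap WT. Without WT replicate 1 the change in phyA was 0.98 for psbE and 0.55 for psbF, and without WT replicate 2 it was 2.79 and 1.87. Between the mutants the values were closer: phyAphyB minus phyA was -0.10 for psbE (95% interval -1.87 to 1.68) and -0.05 for psbF (interval -1.60 to 1.51), which leaves room for changes over 1.5 log2 units either way. The order of mean log2 levels was phyA (13.14 ± 0.67), phyAphyB (13.04 ± 1.79), phyB (12.79 ± 0.27) and WT (11.25 ± 1.28) for psbE, and phyB (14.41 ± 1.05), phyA (14.36 ± 0.74), phyAphyB (14.32 ± 1.196) and WT (13.15 ± 0.93; SD, n = 2 each) for psbF. No 2 neighbours among the mutants differed beyond their spread.

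**Figure D3:**
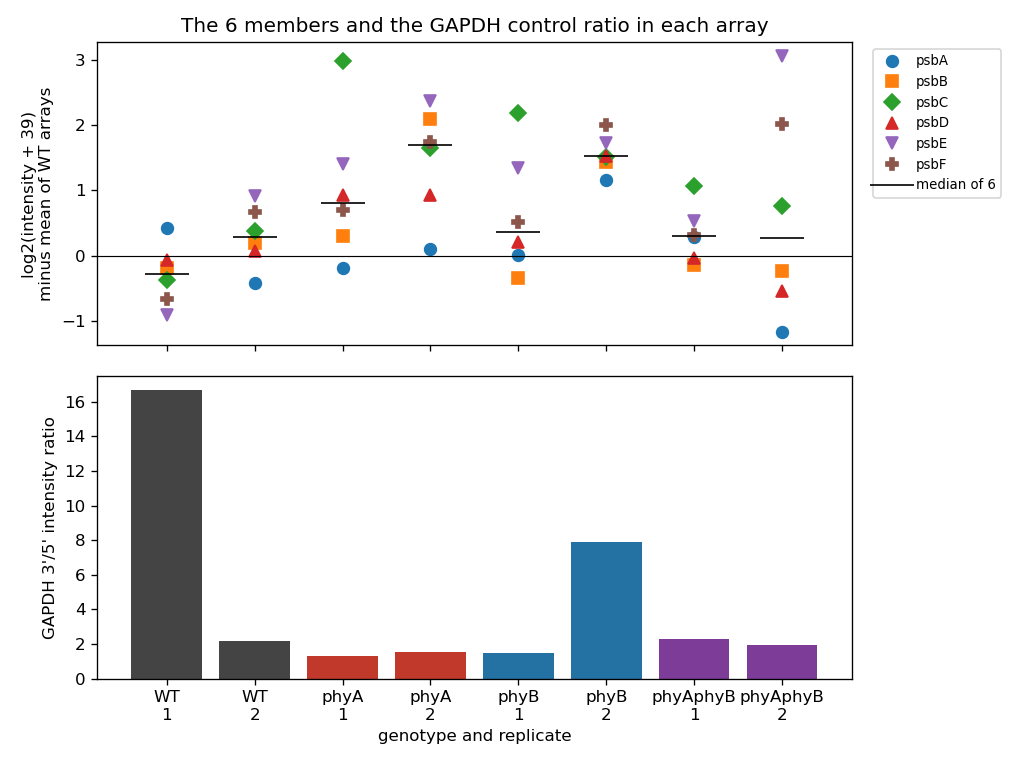
Upper panel: log2(intensity + 39) of each gene minus the mean of both WT arrays, for every array, with the median of the 6 as a bar; lower panel: the 3'/5' intensity ratio of the GAPDH control transcript. The member medians are highest in phyA replicate 2 (1.69) and phyB replicate 2 (1.52), and the ratio is highest in WT replicate 1 (16.7) and phyB replicate 2 (7.87).

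Taken array by array, the median of the 6 members relative to the WT mean was -0.285 and 0.285 in WT, 0.81 and 1.69 in phyA, 0.36 and 1.52 in phyB and 0.30 and 0.26 in phyAphyB on the log2 scale. The same median over all probe sets lay between -0.11 and 0.12. The members were spread widely within an array. In phyA replicate 1 they ran from -0.20 (psbA) to 2.98 (psbC), and in phyAphyB replicate 2 from -1.17 (psbA) to 3.06 (psbE). In phyB replicate 2, by contrast, all 6 lay above the WT mean by 1.16 (psbA) or more. In this array the GAPDH ratio (7.87) and the spikes (1.71) were second to WT replicate 1, and the actin ratio (7.50) was not apart. Whether RNA quality or hybridisation had a part in the shared level of that array was not tested. Seed reserve markers were also higher in summed intensity in every mutant array: 2 of 14 were measured (ICL and PAP85), with a summed intensity of 62223 to 65933 in WT, 73595 to 105655 in phyA, 105849 to 172726 in phyB and 80976 to 99418 in phyAphyB, and their part in the result was not tested.

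The double mutant was set against the sum of the single mutants by the interaction term, in which a negative value means that phyAphyB lay below that sum. All 6 members had a negative interaction, with a median of -1.78 on the log2 scale, against 0.12 over all 13647 probe sets, of which 58% were positive. It was also negative for 9 of 9 plastid small photosystem II subunits (median -1.23) and 7 of 7 photosystem I genes (-1.48). The same held for 6 of 6 cytochrome b6f (-1.27), 6 of 6 plastid ATP synthase (-1.08) and 3 of 4 plastid polymerase genes (-1.23). Mitochondrion-encoded genes had 11 of 11 negative (-1.41). Nuclear lists had medians of -0.95 (3 photosystem II subunits), -1.06 (3 antenna genes), 0.16 (3 assembly factors) and 0.10 (4 chlorophyll synthesis genes). Among all probe sets 0% were called and 3.3% had an unadjusted p under 0.05 in limma, and 2 of the 6 members did, psbC and psbD. For psbC the interaction was -3.25 (SE 0.69, 95% interval -4.78 to -1.71, limma adjusted p = 0.996). For psbD it was -2.09 (SE 0.63, interval -3.49 to -0.68, adjusted p = 0.996). The other 4 ran from -0.98 (psbA) to -1.93 (psbB), with intervals that include 0. When WT replicate 1 and phyB replicate 2 were dropped together, psbC stood at -3.20, psbD at -1.36 and psbF at 0.10. The moderated F test over all genotypes called no member either (0.0147% of all probe sets called, smallest member adjusted p = 0.999, unadjusted p = 0.00371 for psbC and 0.0481 for psbD). These 2 members were under an unadjusted p of 0.05 in that limma test, as were 2.72% of all probe sets.

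In the comparison of phyA with phyB, 0.0147% of all probe sets and no member were called by limma, and no member had an unadjusted p under 0.05 (1.94% of all probe sets). The arrays of the single mutants overlapped for all 6, as they did for most probe sets. Both phyA arrays lay above both phyB arrays for 16.1% of all probe sets and below them for 13.6%. The change of phyA relative to phyB ran from -0.64 (psbA, SE 0.57) to 0.65 (psbB, SE 0.65), with a median of 0.21, against 0.05 over all probe sets. Against phyA, phyAphyB had 6 of 6 negative changes (median -0.81, against 0.04 over all probe sets, of which 55.6% were positive). For 3 members, psbB, psbC and psbD, both arrays lay below both phyA arrays, where 8.67% of all probe sets were so placed. No member and 0% of all probe sets were called, and 2 members had an unadjusted p under 0.05 in limma (0.784% of all). Against phyB, 5 of 6 were negative (median -0.83, against 0.10 over all probe sets, of which 59.3% were positive). Here psbC and psbD had both arrays below both phyB arrays (10.4% of all). There again no member was called (0.0147% of all), with 1 member at an unadjusted p under 0.05 (1.08% of all).

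The position of the genes in the plastid genome, read from the gene order in the RefSeq table of assembly TAIR10.1, was not used to choose them. psbD and psbC are neighbours whose reading frames overlap, psbF and psbE are neighbours with psbL and psbJ next to psbF, psbB is followed by psbT, psbN, psbH, petB and petD, and psbA stands beside matK. Plastid genes in such clusters are commonly transcribed together and cut into shorter RNAs afterwards. Strand was not read, so a gene listed here need not share a transcript with its neighbour. Pearson's r over the 8 arrays was computed for the 15 pairs of members and for 11 pairs of a member and a gene of its cluster, with two-sided exact permutation tests and Benjamini-Hochberg adjustment over the 26 pairs. The arrays of a pair share RNA, labelling and scaling, and arrays of 1 genotype or replicate number may resemble each other. The permutations treated all 8 arrays as exchangeable. Their p-values therefore do not separate a link between genes from such shared differences between arrays.

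psbE and psbF had the highest r of the 15 member pairs, 0.923 (exact permutation adjusted p = 0.00967; Spearman's rho 0.952, adjusted p = 0.0148). Without the 2 arrays farthest from the median of psbE, WT replicate 1 and phyAphyB replicate 2, r was 0.813. Their cluster went with them: psbE and psbJ had r = 0.951 (exact permutation adjusted p = 0.00903; rho 0.976, adjusted p = 0.0103) and 0.893 without those arrays, and psbF and psbL had r = 0.969 (adjusted p = 0.0161; rho 0.762, adjusted p = 0.159) and 0.942. psbJ and psbL encode small subunits of photosystem II. psbJ was 1350 and 5375 in WT, 9131 and 18150 in phyA, 8537 and 12870 in phyB and 7534 and 18733 in phyAphyB, so it too was lowest in WT replicate 1 and highest in phyAphyB replicate 2.

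The other clusters were less alike across arrays. psbC and psbD, although they overlap, had r = 0.56 (exact permutation adjusted p = 0.339; rho 0.714, adjusted p = 0.200), and 0.475 without WT replicate 1 and phyA replicate 1. Within an array, the log2 difference psbC minus psbD relative to its WT mean was -0.31 and 0.31 in WT, 2.06 and 0.72 in phyA, 1.98 and -0.01 in phyB and 1.11 and 1.31 in phyAphyB. It lay above both WT arrays in 5 of 6 mutant arrays, with phyB replicate 2 as the exception. psbC had the larger fitted change against WT in each mutant, so a positive mean difference restates those changes. For psbE minus psbF the values were -0.24 and 0.24 in WT, 0.72 and 0.63 in phyA, 0.83 and -0.27 in phyB and 0.20 and 1.04 in phyAphyB. How many other pairs of probe sets lie this way was not counted, and neither difference was tested. psbB and psbT, which encodes a small photosystem II subunit, had r = 0.906 (exact permutation adjusted p = 0.0374; rho 0.786, adjusted p = 0.159), which fell to 0.264 without phyA replicate 2 and phyB replicate 2, so the relation rests on these arrays. psbB and petB, a cytochrome b6f gene of the same cluster, had r = 0.278 (adjusted p = 0.620; rho 0.119, adjusted p = 0.825; 0.127 without the same 2 arrays). With psbB, r was 0.823 for petD (0.094 without those arrays), 0.602 for psbH and 0.432 for psbN. With psbZ, the gene after psbC, r was 0.262 for psbC and 0.516 for psbD. None of these passed after adjustment (exact permutation adjusted p from 0.0667 to 0.62). Over the 15 member pairs r ran from -0.432 (psbA and psbE) to 0.923, with a median of 0.384, and 1 pair passed after adjustment.

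**Figure D4:**
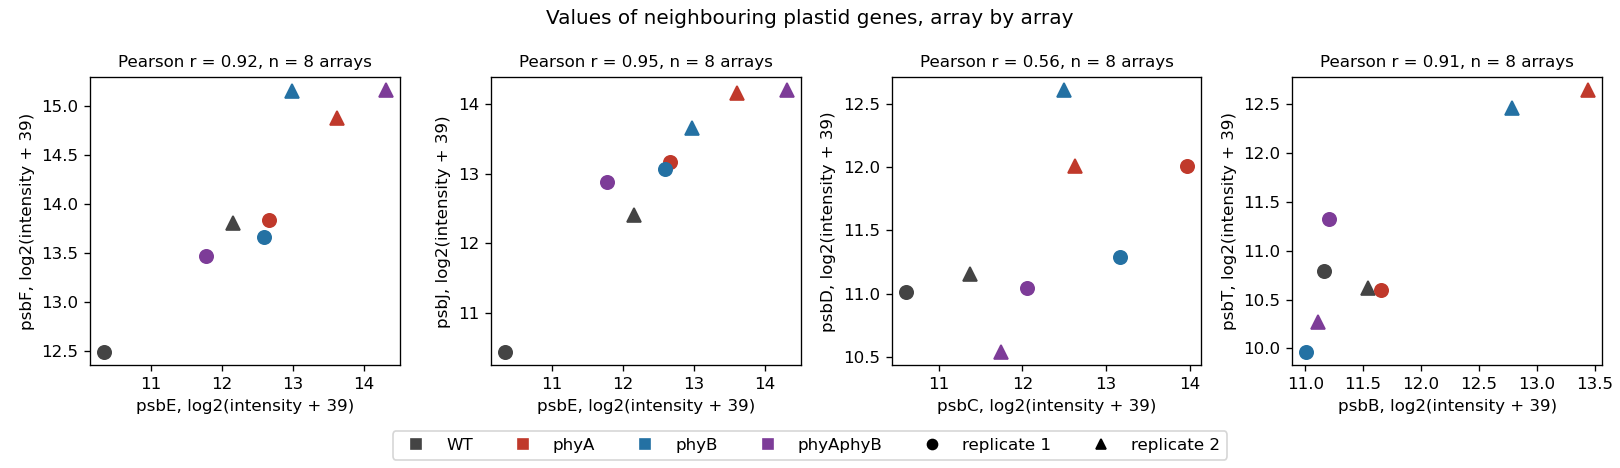
Values of 4 pairs of neighbouring plastid genes in the 8 arrays, as log2(intensity + 39) on both axes; colour gives the genotype and shape the replicate. psbE follows psbF (r = 0.92) and psbJ (r = 0.95) over the whole range, psbC and psbD scatter (r = 0.56), and the r of 0.91 for psbB and psbT rests on phyA replicate 2 and phyB replicate 2.

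Other photosynthesis genes gave the setting for these values, and no gene in any of these lists was called. The 9 measured small photosystem II subunits of the plastid had a median log2 change of 1.16 in phyA (9 of 9 positive), 0.95 in phyB (9 of 9) and 1.06 in phyAphyB (8 of 9), against 1.204, 1.06 and 0.36 for the 6 core members. Among them psbJ stood at 2.24, 1.94 and 2.12, and psbH, a small subunit gene in the psbB cluster, at 1.29 in phyA, 1.26 in phyB and 1.06 in phyAphyB. The 7 photosystem I and assembly genes had medians of 1.09, 0.85 and 0.42 in the same order, with psaA, a reaction centre gene of photosystem I, at 2.47, 1.38 and 1.76 and psaJ at 1.22, 1.28 and 1.019. These values are log2 changes in phyA, phyB and phyAphyB. The 6 cytochrome b6f genes had medians of 0.67, 0.69 and 0.20, the 6 ATP synthase genes 0.58, 0.84 and 0.38, and the 4 genes of the plastid RNA polymerase, which transcribes most photosystem genes, 0.55, 0.86 and 0.23. In the same order petB stood at 1.27, 1.44 and 1.011, petA, the cytochrome f gene, at 0.72, 0.49 and 0.58, atpB at 1.53, 1.496 and 1.58 and atpH at 1.05, 0.89 and 0.40. The polymerase genes rpoB and rpoC1 stood at 1.07, 1.18 and -0.10 and at 0.69, 1.28 and 0.17. The 11 mitochondrion-encoded genes that passed the filter had medians of 0.50, 0.79 and -0.09, with nad5 at 0.90, 0.61 and -0.53 and cox1 at 0.74, 0.79 and 0.01. The genes named singly had the smallest p for phyA against WT in limma within their list, which favours large changes there. The difference between the core members and these lists was not tested.

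Few nuclear partners had a named probe set. Of 16 written nuclear photosystem II subunits 3 were measured (PSBW, PSB27 and PSBY), with medians of 0.60 in phyA, 0.54 in phyB and 0.19 in phyAphyB. PSBY stood at 0.79, 1.010 and 0.43, and the assembly protein gene PSB27 at 0.60, 0.54 and 0.19. Of 15 antenna genes 3 were measured, with LHCB4.2, a minor antenna protein, at 1.59, 1.42 and 0.62 and LHCB4.1 at 0.41, 0.76 and 0.12. LHCB4.2 and psbC thus both had the highest of the 3 mutant values in phyA and the lowest in phyAphyB, with neither called. LHCB4.2 was named for its small p in phyA against WT, which favours a high value there, and LHCB4.1 was highest in phyB. The assembly factor genes LPA1, LPA2 and PAM68, 3 of 24 written, had medians of 0.07, 0.08 and 0.30, with PAM68 at 0.28, 0.41 and 0.34 and LPA1 at -0.24, -0.28 and -0.0046. None of the 29 written plastid transcription genes, sigma factors included, had a probe set of its own in the tables.

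The genes with the most similar pattern were named by Pearson's r over the 8 arrays between a probe set and the mean profile of the 6 members, each centred on its mean. This was computed for 7343 kept probe sets with 1 named gene, so high values arise from the number of candidates alone, and no p is given. The 5 highest were the nuclear genes AT3G16740 (r = 0.943), AT1G73480 (0.935), AT1G60080 (0.935), AT5G59950 (0.934) and AT3G57490 (0.924). Of the 20 highest, 1 was a plastid gene, among 63 plastid candidates. AT3G16740 was 568 and 812 in WT, 1240 and 1293 in phyA, 1205 and 1840 in phyB and 763 and 1092 in phyAphyB. For psbC alone the 3 highest were AT4G21110 (r = 0.992), AT2G32000 (0.967) and AT4G05460 (0.960), and the 20 highest held 0 plastid genes. AT4G21110 was 9894 and 12131 in WT, 20400 and 14895 in phyA, 17222 and 15175 in phyB and 12814 and 12588 in phyAphyB, the same order of genotypes as psbC over a smaller range.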

How the data were processed

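Every array has 1 deposited intensity for each probe set, a linear whole number. How probes were summarised, and with which software, the sources used here do not give. Trimming 2% at both ends gave array means of 2500.2 to 2500.3, which shows a common scaling before deposit, and no further normalization was applied. The 64 control probe sets were left out of 22810. Genes were named from the platform annotation table (13513 probe sets with 1 gene, 503 with several, 8730 not listed). Changes were fitted with limma 3.58.1 (R 4.3.3): a mean per genotype over all 8 arrays on log2(intensity + 39), eBayes with an intensity trend, 4 residual and 5.87 prior degrees of freedom. The pseudocount understates changes of dim probe sets. The number of arrays limits the precision. The script was tested on simulated data. Correlations were tested in Python 3.11.15 by exact permutation.

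The members, the gene lists and the naming rule (all members, the 5 genes most like their mean and the 3 most like psbC, and the 2 of each list with the smallest p for phyA against WT, given where the list is described) were chosen with earlier results of these data known. The cluster neighbours, the count over all 6 mutant arrays and the comparison of replicate 2 with replicate 1 were added after the values were seen. The title of phyA replicate 1 carries no number. No sequences are given, since no source used here holds them, and coordinates are not printed.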

Additional observations from a re-analysis of the deposited data

Results flagged for a closer look

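For psbC and psbD the fitted change that goes with the phyA-211 allele was positive in the PHYB background and negative in the phyB-9 background. Opposite directions were not established, because limma's unadjusted interval included 0 on one side in each gene. These were psbC in phyAphyB against phyB (-2.02 to 0.16) and psbD in phyA against WT (-0.07 to 1.92). In both genes each phyA array lay above both WT arrays, and each phyAphyB array lay below both phyB arrays. For the phyB-9 allele the arrays likewise lay above WT in the PHYA background and below phyA in the phyA-211 background. This is not a separate result, since it rests on the same arrays and the same interaction term. Of the phyB-9 changes in these genes, only psbD in phyB against WT had an interval that included 0 (-0.13 to 1.86). Of all probe sets, 18% had phyA above WT and 10.4% had phyAphyB below phyB in this way. For phyB-9 the shares were 14.7% and 8.67%. The share of probe sets meeting both conditions was not counted for either allele. The difference between the backgrounds, which is the interaction term, was -3.25 on the log2 scale for psbC (SE 0.69) and -2.09 for psbD (SE 0.63). Neither was called (limma adjusted p = 0.996 for both). Without any 1 array it stayed between -3.91 and -2.58 for psbC and between -2.75 and -1.42 for psbD. The cause was not tested. With 2 arrays per genotype no single array could be tested as an outlier within its group.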

How the results depend on the processing

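No member was called under any alternative in any of the 8 tests: 129 counts of members called were all 0, and the smallest limma adjusted p was 0.0678, for phyA against WT without WT replicate 2. Without that array the calls over all probe sets were 93 for phyA, 70 for phyB and 30 for phyAphyB against WT (2, 0 and 3 with all arrays), 16 for the interaction (0) and 21 in the F test (2). Other counts over all probe sets lay between 0 and 5. Without 1 array the member median ran from 0.81 to 1.69 for phyA against WT, from 0.36 (without phyB replicate 2) to 1.52 for phyB, from 0.24 to 0.65 for phyAphyB, from -2.40 (without phyB replicate 1) to -1.10 (without phyA replicate 2) for the interaction, from -1.28 to -0.37 for phyAphyB against phyA, from -1.22 to -0.15 (without phyB replicate 2) for phyAphyB against phyB and from -0.42 (without phyB replicate 1) to 0.62 for phyA against phyB.

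Without both arrays of high GAPDH ratio the median was 0.28 for phyB against WT, -0.15 for phyAphyB against phyB and -0.84 for the interaction. These changed sign there: psbA for phyA against WT (0.37), psbB and psbF for phyB against WT (-0.53 and -0.15), psbB and psbF for phyAphyB against phyB (0.15 and 0.65), psbF for phyA against phyB (0.70) and psbF for the interaction (0.10). With quantile normalization psbF changed sign for phyAphyB against phyB (0.14) and for phyA against phyB (0.17), and psbD for phyA against phyB (-0.0498). The cause was not tested. Median centring moved the median interaction of all probe sets from 0.12 to -0.02.

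Without 1 array these values crossed 0: psbA from -0.47 to 0.37 for phyA against WT, from -1.17 to 0.28 for phyAphyB against WT and from -1.12 to 0.33 for phyAphyB against phyA; psbB from -0.34 to 1.43 for phyB against WT, from -1.63 to 0.15 for phyAphyB against phyB and from -0.25 to 1.54 for phyA against phyB; psbC from -0.20 to 1.13 and psbD from -0.60 to 0.72 for phyA against phyB; psbE from -1.36 to 1.17 for phyAphyB against phyA, from -1.01 to 1.52 for phyAphyB against phyB and from -0.12 to 0.83 for phyA against phyB; psbF from -0.89 to 0.80, from -0.94 to 0.75 and from -0.79 to 0.70 in the same order. A lone array was assumed to vary like the other groups. Replicate numbers in WT, phyB and phyAphyB were not shown to pair samples: deviations of same-numbered arrays correlated at -0.06 for WT and phyB, 0.64 for WT and phyAphyB and 0.15 for phyB and phyAphyB. Across all 4 genotypes the 6 highest correlations between arrays joined equal numbers, 4 of them with a phyA array, which the block leaves out. With a replicate block added to the fit of these 6 arrays, no member was called (smallest limma adjusted p = 0.333). The medians stayed at 1.06, 0.36 and -0.83 for phyB and phyAphyB against WT and phyAphyB against phyB. With 1 array of each number per genotype the block cannot move these medians, so they do not test it. Over all probe sets there were 0, 2 and 2 calls with the block and as many without it in the same arrays. No paired analysis was run for phyA, because the title of 1 of its arrays carries no number.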

Other observations

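Of 17 written chlorophyll synthesis genes 4 had a named probe set (PORB, CHLM, CHLI2 and HEMA2), and none was called. Their median log2 change was 0.07 in phyA, -0.10 in phyB and 0.14 in phyAphyB. PORB, the light-dependent enzyme that reduces protochlorophyllide, stood at 0.07, -0.17 and 0.01, CHLM, a methyltransferase of the same pathway, at 0.62, 0.68 and 0.14, and HEMA2 at -0.36, -0.38 and 0.52. Among 3 measured light-grown leaf markers, RCA, the activase of Rubisco, stood at 1.013 in phyA, 0.71 in phyB and 0.97 in phyAphyB, and SBPASE, an enzyme of the Calvin cycle, at -0.23, 0.01 and -0.11, with neither called by limma.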
